A study of Mus musculus with 8 samples.

Results

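Toll-like receptors (TLRs) are sensors of microbial products, and the genes followed here are Tlr1, Tlr2, Tlr4, Tlr6, Tlr7 and Tlr9 with the co-receptor genes Cd14 and Ly96. They were chosen by name, with earlier results of these data known but by no rule on measured values, and make up 8 of the 56748 genes counted in the 8 libraries. Of these 8 genes, 5 had enough counts to be tested among 14942 genes of the whole series, and the other 3 are described by their counts. The question was whether the transcripts of these receptors differed between resting mast cells depleted of Mettl3 and their controls.

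The libraries came from bone marrow derived mast cells (BMMCs), mast cells grown from whole bone marrow of young adult C57BL/6 mice in medium with IL-3. In the Mettl3-RNP group (genotype Mettl3 KO, 4 libraries) the differentiated cells had been electroporated with ribonucleoproteins (RNPs) of the Cas9 nuclease and guide RNAs against Mettl3. In the Pulsed group (genotype Mettl3 WT, 4 libraries) the cells had been mock transfected, so that they went through the pulse without an RNP, and no library from cells with a control RNP was analysed here. Marrow of 4 mice was the starting material according to the series text, and libraries with the same replicate number were treated as a pair. The edited cells were a bulk population and not a clone. According to the study, untargeted cells remained in it, and depletion of the Mettl3 protein was checked by intracellular staining.

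Each TLR has a leucine-rich ectodomain that binds the ligand and a cytosolic TIR domain that recruits an adaptor. Tlr4 senses bacterial lipopolysaccharide (LPS) together with Ly96 (MD-2), a small secreted protein that binds the lipid, while Cd14 hands LPS over to this complex. Tlr2 pairs with Tlr1 or with Tlr6 to sense bacterial lipopeptides, and Tlr7 and Tlr9 sense single-stranded RNA and unmethylated CpG DNA in endosomes. Mast cells are known to release cytokines upon TLR ligation, with or without degranulation. Mettl3 is the catalytic subunit of the enzyme complex that writes N6-methyladenosine (m6A) on mRNA.

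Total counts ranged from 32643260 to 45324826 per library, and a count of 3, taken as the lowest level that can be read, was worth 0.0662 to 0.0919 CPM (counts per 1000000 counts of the library). The targeted gene Mettl3 was lower in 4 of 4 pairs, at 8.89 ± 3.05 CPM (SD, n = 4) in Mettl3-RNP and 22.0 ± 7.29 CPM (SD, n = 4) in Pulsed libraries, with a log2 fold change of -1.30 (SE 0.109, edgeR adjusted p = 0.00543). Without the replicate block its adjusted p was 0.744. The exons of Mettl3 overlap those of Tox4 on the opposite strand. The 12 mast cell markers examined summed to 38898 to 54627 CPM in Mettl3-RNP and to 43911 to 61707 CPM in Pulsed libraries, with a lower sum in Mettl3-RNP in 4 of 4 pairs. Of the 11 tested mast cell markers 1 fell, the granule protease Cpa3 (30425 to 23272 CPM in the means, log2 fold change -0.37, adjusted p = 0.0328), and this fall was larger than that of the sum. The median log2 fold change of the list was 0.08. Genes that mark macrophages, dendritic cells, B cells and neutrophils were low beside the mast cell markers. The 11 macrophage markers summed to 8.72 to 37.6 CPM in Mettl3-RNP and 11.2 to 17.5 CPM in Pulsed libraries. The 8 dendritic cell markers summed to 0.807 to 4.53 CPM and 0.0822 to 1.74 CPM. For the 6 measured B cell markers the sums were 0.161 to 0.537 CPM and 0.0783 to 0.224 CPM. Of 9 neutrophil markers, 5 (S100a8, S100a9, Elane, Retnlg and Camp) had no count in any library. The macrophage sum was not low beside the members Tlr6 (5.52 to 14.6 CPM) and Ly96 (1.67 to 5.71 CPM). The part of such cells in the member levels was not tested. Of the 5 tested macrophage markers 1 fell, Adgre1 (log2 fold change -1.13, adjusted p = 0.0435), while Cd68 had 1.63 (0.142). The 4 basophil markers summed to 577 to 897 CPM in Mettl3-RNP and 571 to 684 CPM in Pulsed libraries, nearly all from Cd200r3 and Gpr141, while the basophil proteases Mcpt8 and Prss34 were low and had fewer counts per library size in Mettl3-RNP in 4 of 4 pairs. In bulk libraries fewer cells of a type and less RNA per cell cannot be told apart.

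Tlr4 was the most abundant TLR transcript of these mast cells, also per length. The gene (ENSMUSG00000039005) lies on chromosome 4 from 66745783 to 66849936 on the plus strand (GRCm39). Its level was 68.0, 58.8, 29.3 and 58.1 CPM in Mettl3-RNP 1 to 4 and 80.0, 61.6, 26.7 and 56.3 CPM in Pulsed 1 to 4. The range of the Mettl3-RNP libraries lay within that of the Pulsed libraries, and replicate 3 was the lowest library of either group. The log2 fold change was -0.03 with a 95% interval from -0.22 to 0.15 (edgeR adjusted p = 0.846), with 2 pairs higher and 2 pairs lower in Mettl3-RNP. Exons of Gm69151 overlap those of Tlr4 on the opposite strand, and whether counting used strand is not stated.

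Ly96, whose protein holds LPS at the Tlr4 ectodomain, had fewer counts in Mettl3-RNP libraries in 4 of 4 pairs but did not pass the test. The gene (ENSMUSG00000025779) lies on chromosome 1 from 16758275 to 16779961 on the plus strand. Its level was 4.52, 3.06, 1.67 and 4.67 CPM in Mettl3-RNP 1 to 4, from 50 to 168 counts, and 5.71, 4.39, 2.31 and 4.98 CPM in Pulsed 1 to 4, from 93 to 203 counts. The groups overlapped, and replicate 3 was again the lowest of each. The log2 fold change was -0.35 with a 95% interval from -0.69 to -0.0015 (SE 0.15, edgeR unadjusted p = 0.0492 and adjusted p = 0.221). The pair differences were -0.33, -0.51, -0.45 and -0.09, for which the exact two-sided sign-flip permutation test gave p = 0.13, the smallest value that 4 pairs allow.

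The 250 bases before the start of the canonical transcript are shown for Tlr4, Ly96 and Tlr6, the abundant members, because these genes are read together below and did not share their direction. Sequence is from GRCm39, at chr4:66745533-66745782 (plus strand) for Tlr4, chr1:16758407-16758656 (plus strand) for Ly96 and chr5:65117391-65117640 (minus strand) for Tlr6, written in the direction of transcription. The windows of Ly96 and Tlr6 lie inside the annotated genes, which begin further upstream, at 16758275 for Ly96 and 65203497 for Tlr6. They therefore cover 1 of several possible starts. Capitals mark matches, on either strand, to AGGAAG (a core bound by ETS factors such as PU.1) and CATGTG (an E-box bound by MITF, a mast cell factor).
Tlr4: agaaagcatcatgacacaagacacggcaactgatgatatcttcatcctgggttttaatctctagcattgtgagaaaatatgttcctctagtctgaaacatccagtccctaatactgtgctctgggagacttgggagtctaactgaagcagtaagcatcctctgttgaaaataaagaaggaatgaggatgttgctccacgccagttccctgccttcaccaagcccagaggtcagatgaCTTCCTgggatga
Ly96: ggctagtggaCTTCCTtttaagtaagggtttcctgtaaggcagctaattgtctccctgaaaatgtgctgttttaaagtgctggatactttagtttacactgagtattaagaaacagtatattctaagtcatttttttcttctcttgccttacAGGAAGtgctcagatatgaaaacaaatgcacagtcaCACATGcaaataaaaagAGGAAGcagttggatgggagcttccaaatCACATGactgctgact
Tlr6: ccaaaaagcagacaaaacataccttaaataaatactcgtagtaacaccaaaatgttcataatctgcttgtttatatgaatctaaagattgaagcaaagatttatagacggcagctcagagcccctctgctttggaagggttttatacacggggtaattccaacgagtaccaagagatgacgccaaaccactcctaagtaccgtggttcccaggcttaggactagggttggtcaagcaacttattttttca

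The window of Ly96 held 3 matches to AGGAAG and 2 to CATGTG, and that of Tlr4 held 1 match to AGGAAG. The Tlr6 window held neither. Among 12056 windows of the same length before tested protein-coding genes, 28.6% held AGGAAG and 7.52% held CATGTG on either strand, so a single match to AGGAAG is common. AGATAA, a core bound by GATA factors, was in 7.29% of these windows and in none of these 3. A match is a description of letters and not a binding site.

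Cd14 was close to the limit of the libraries. The gene (ENSMUSG00000051439) lies on the minus strand of chromosome 18 (36858120 to 36859851). It had 18, 16, 15 and 0 counts in Mettl3-RNP 1 to 4 and 15, 16, 19 and 5 counts in Pulsed 1 to 4, which gave 0.340 ± 0.234 and 0.362 ± 0.152 CPM (SD, n = 4). Replicate 4 was the lowest of both groups, and the other 3 pairs lay close together. The log2 fold change was -0.38 with an interval from -1.90 to 1.14 (edgeR adjusted p = 0.787). Without replicate 4 it was 0.05, so its sign rested on that pair, and changes within this interval were not detectable at this depth.

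Tlr6, a partner of Tlr2 for diacylated lipopeptides, was the member with the largest difference among those with an abundant transcript. The gene (ENSMUSG00000051498) lies on the minus strand of chromosome 5 (65108704 to 65203497). Its level was 14.1, 10.1, 9.0 and 14.6 CPM in Mettl3-RNP 1 to 4 (269 to 524 counts) and 11.7, 7.28, 5.52 and 9.78 CPM in Pulsed 1 to 4 (222 to 416 counts). The groups overlapped, since Pulsed 1 and Pulsed 4 lay within the range of the Mettl3-RNP libraries, but each Mettl3-RNP library was above the Pulsed library of its own number. The log2 fold change was 0.50 with a 95% interval from 0.24 to 0.76, a fold of 1.42 (SE 0.112, edgeR unadjusted p = 0.00217). The adjusted p was 0.0536, above the threshold of 0.05.

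The call for Tlr6 depended on the settings. It passed with DESeq2's size factors (adjusted p = 0.0490), with library size alone (0.0477), with every gene that had a count (0.0320), with at least 10 counts in every library (0.0423), with the DESeq2 Wald test (0.0145) and with batch removal followed by limma-trend (0.00118). It did not pass with limma-voom (0.0586), with replicate 1, 2, 3 or 4 left out (0.107, 0.199, 0.0987 and 0.148) or without the replicate block (0.999). Its log2 fold change stayed between 0.44 and 0.55 in all 12 alternatives. The p-values after batch removal are too small, because that fit leaves out the degrees of freedom of the replicate terms. The pair differences were 0.27, 0.47, 0.70 and 0.58, and the exact two-sided sign-flip permutation test gave p = 0.13.

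Tlr1, the neighbour of Tlr6 on chromosome 5 (ENSMUSG00000044827, from 65082022 to 65090941, minus strand) and the partner of Tlr2 for triacylated lipopeptides, had 29, 43, 17 and 41 counts in Mettl3-RNP 1 to 4 and 24, 25, 15 and 43 counts in Pulsed 1 to 4. The groups overlapped, with 3 pairs higher and 1 pair lower in Mettl3-RNP. The log2 fold change was 0.35 with an interval from -0.47 to 1.17 (edgeR adjusted p = 0.627). Tlr1 and Tlr6 are close paralogs that share sequence: 454 of the 3136 exonic stretches of 50 bases of Tlr1 (14.5%) also occur in the 4565 of Tlr6 (9.95% of them). Reads from these stretches cannot be told apart by sequence, and how the counting treated reads with several matches is not stated, so the split of counts between Tlr1 and Tlr6 is uncertain. No exonic stretch of this length of Tlr2, Tlr9, Cd14 or Ly96 occurred elsewhere in the genome.

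**Figure D1:**
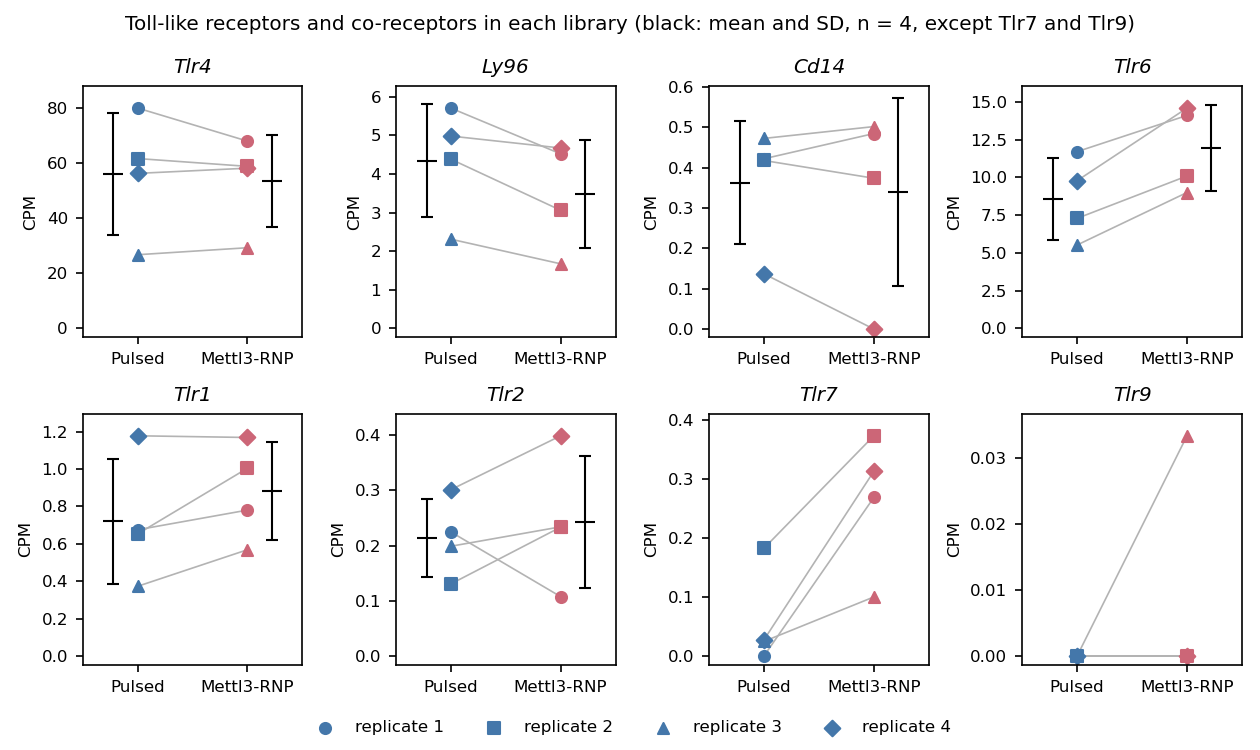
Level of each gene in CPM (vertical axes, different for each gene) in Pulsed (blue) and Mettl3-RNP (red) libraries, with a symbol for each replicate number and grey lines joining pairs. Black marks give the mean and SD of 4 libraries, and are left out for Tlr7 and Tlr9, which had too few counts for the test and libraries at 0. Tlr6 is higher and Ly96 lower in each of the 4 Mettl3-RNP libraries than in its pair, while Tlr4 goes up in 2 pairs and down in 2.

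Tlr2, the shared partner of Tlr1 and Tlr6, was barely detected. The gene (ENSMUSG00000027995, chromosome 3 from 83743576 to 83749074, minus strand) had 4, 10, 7 and 14 counts in Mettl3-RNP 1 to 4 and 8, 5, 8 and 11 counts in Pulsed 1 to 4, too few for the test. The groups overlapped. Per length, Tlr6 exceeded Tlr2 in every library, by 31.4 to 148 times.

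Tlr7 was low in both groups, with more counts in Mettl3-RNP libraries. The gene (ENSMUSG00000044583, chromosome X from 166086758 to 166113605, minus strand) had 10, 16, 3 and 11 counts in Mettl3-RNP 1 to 4 and 0, 7, 1 and 1 counts in Pulsed 1 to 4, or 40 and 9 counts in all. Each Mettl3-RNP library was above its pair, but the groups overlapped, since Pulsed 2 lay above Mettl3-RNP 3. Tlr7 did not pass the filter on low counts. In the alternative that tested every gene with a count, edgeR gave it an adjusted p of 0.374. Of the exonic stretches of 50 bases of Tlr7, 10.03% also occur elsewhere in the genome.

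The dendritic cell markers were highest in Mettl3-RNP 2, the library with the most Tlr7 counts, at 4.53 CPM in sum, and the B cell markers too, at 0.537 CPM, where the B cell marker Ms4a1 had no count in any library. The macrophage markers were highest in Mettl3-RNP 4, at 37.6 CPM, and the neutrophil markers in Pulsed 3, at 0.373 CPM. In pair 1, where Tlr7 had 0 counts in Pulsed and 10 in Mettl3-RNP, the macrophage sum (17.3 and 8.72 CPM) and the dendritic cell sum (1.74 and 0.807 CPM) were lower in Mettl3-RNP. The B cell and neutrophil sums of that pair were higher. The summed B cell markers were higher in Mettl3-RNP in 4 of 4 pairs, as Tlr7 was, the macrophage markers in 3 of 4 and the dendritic cell markers in 2 of 4. Mettl3-RNP 2 also had the most genes with a count, 28483, against 21871 in the library with the fewest. The part of other cells in the Tlr7 counts was not tested.

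Tlr9 (ENSMUSG00000045322, chromosome 9 from 106099797 to 106104082, plus strand) had 1 count in Mettl3-RNP 3 and none in the other 7 libraries. The other TLR genes of the mouse were also under the filter on low counts, at 0 to 67 counts over the 8 libraries. Tlr13, an endosomal sensor of bacterial ribosomal RNA, had 6, 32, 4 and 9 counts in Mettl3-RNP 1 to 4 and 5, 0, 4 and 7 counts in Pulsed 1 to 4, or 51 and 16 in all, with its highest count again in Mettl3-RNP 2 and more CPM in Mettl3-RNP in 4 of 4 pairs. Tlr12 summed to 16 counts over the 8 libraries, Tlr3 to 12, Tlr5 to 6, Tlr8 to 3 and Tlr11 to 0. None of these 6 genes entered the edgeR fit of the 14942 genes. In the alternative with every gene that had a count, Tlr13 had an adjusted p of 0.9997 by edgeR, and no difference between groups was detectable for Tlr3, Tlr5, Tlr8 or Tlr12 at these depths.

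To compare genes with each other, counts were divided by the length of the gene's exons in kb and by the library size in units of 1000000 counts. On this length-scaled scale Tlr4 led with a level of 7.82 ± 2.60 (SD, n = 8 libraries), followed by Cd180 (a TLR4-like surface receptor without a TIR domain) at 3.65 ± 0.869, Ly96 at 3.17 ± 1.14 and Tlr6 at 2.11 ± 0.645. Tlr1 at 0.237 and Cd14 at 0.203 came next, then Tlr13 at 0.0457, Tlr2 at 0.0416 and Tlr7 at 0.0305, and the remaining receptors lay below 0.02. Tlr4 exceeded Cd180 within each of the 8 libraries, although their ranges over libraries overlapped. Ly96 exceeded Tlr6 in 7 of 8 libraries.

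Cd180 and Ly96 overlapped in range, with Cd180 the higher in 5 of 8 libraries (7 of 8 by the longest transcript, at means of 6.38 and 5.17). The ranges of Tlr1 and Cd14 also overlapped, with Tlr1 the higher in 3 of 8 libraries, as did those of Tlr2 and Tlr7 (5 of 8). Tlr13 exceeded Tlr2 in 2 of 8 libraries, and its higher mean rested on Mettl3-RNP 2, at 0.158. Exons of Mast4 overlap those of Cd180 on the opposite strand, so the level of Cd180 carries that uncertainty. A gap separated Tlr6 from Tlr1, whose ranges over libraries did not overlap. Ly86, which codes for MD-1, the partner of Cd180, had 1 count in 1 library, so that the transcript of Cd180 was present nearly without that of its partner. The members kept this order when the longest transcript replaced the union of exons.

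**Figure D2:**
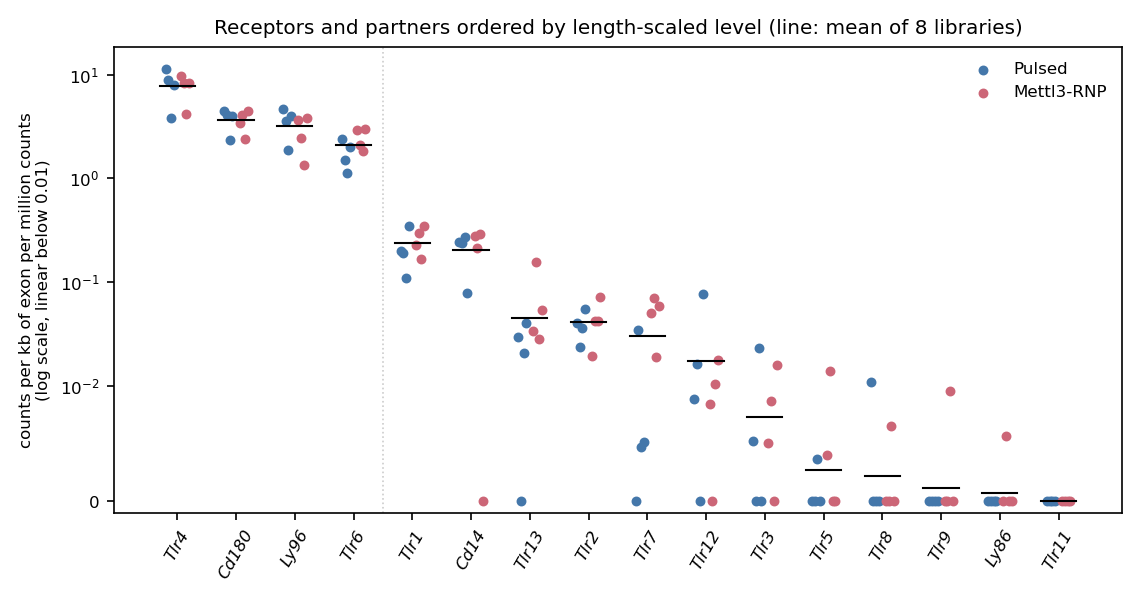
Length-scaled level (counts per kb of exon per 1000000 counts, vertical log axis that is linear below 0.01) of 12 mouse TLR genes and of Cd14, Ly96, Cd180 and Ly86, 1 dot per library, blue for Pulsed and red for Mettl3-RNP, with a line at the mean of 8 libraries. The dotted line marks the gap between Tlr6 at 2.11 and Tlr1 at 0.237.

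Within the members the direction thus differed: over the 5 tested genes the median log2 fold change was -0.03, against -0.0013 for all 14942 tested genes. None of the 5 passed the adjusted p of 0.05 in edgeR, a threshold that 3.74% of all tested genes passed (2.35% higher and 1.39% lower). At an unadjusted p under 0.05 there were 2 of 5, Tlr6 and Ly96, where 22.5% of all tested genes had such a p. The same 2 genes kept 1 direction in 4 of 4 pairs, as 31.7% of all tested genes did. The DESeq2 Wald test called 1 member (Tlr6), batch removal with limma-trend 2 (Tlr6 and Ly96) and limma-voom 0. Batch removal was followed by a fit of the groups alone, which does not charge for the replicate terms, so its p-values are too small.

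**Figure D3:**
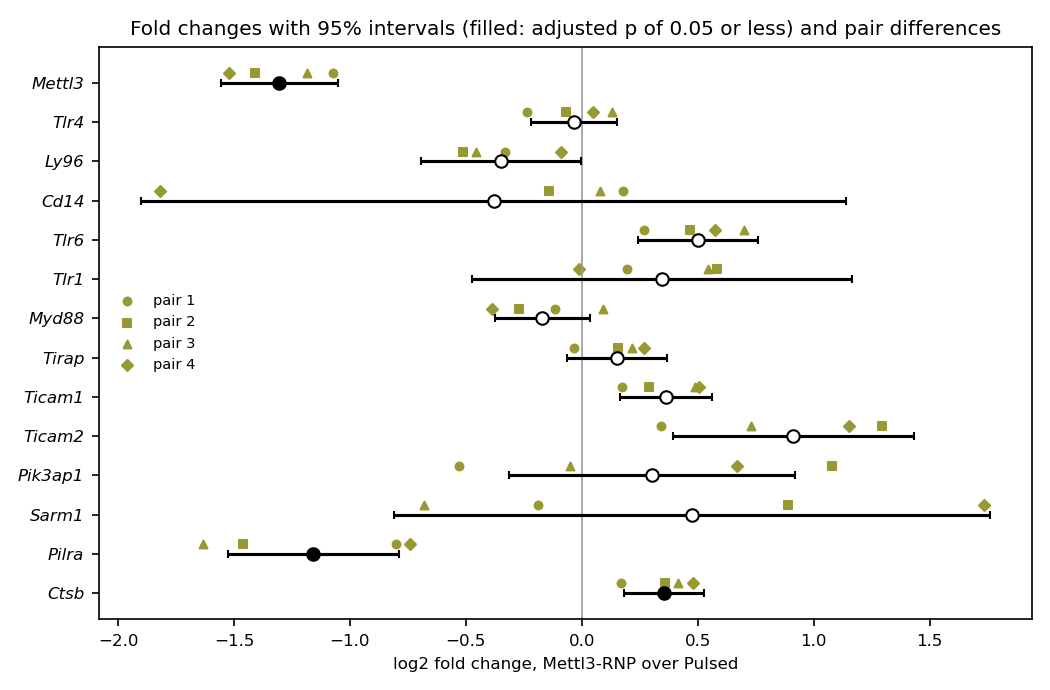
Log2 fold change of Mettl3-RNP over Pulsed (horizontal axis) with its 95% interval from the edgeR fit, filled where the adjusted p was 0.05 or less, for Mettl3, the 5 tested members, the 6 adaptors, Pilra and Ctsb. The small symbols above each interval are the log2 differences of the 4 pairs. The intervals of Tlr6 (0.24 to 0.76) and Tlr4 (-0.22 to 0.15) do not overlap.

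Ratios between members within a library do not depend on the scaling of libraries. Of 6 ratios formed after the levels had been seen, 5 had a value above 0 in every library, and among these the ratio of Tlr4 to Tlr6 varied least between pairs. It was 3.34, 4.04, 2.26 and 2.76 in Mettl3-RNP 1 to 4 and 4.74, 5.87, 3.36 and 3.99 in Pulsed 1 to 4, per length of the union of exons. By the longest transcript, where the mean levels of Tlr4 and Tlr6 were 13.3 and 2.32, each ratio is larger by 1 common factor, which leaves the pair differences as they are. It was lower in Mettl3-RNP in 4 of 4 pairs, by log2 differences of -0.50, -0.54, -0.57 and -0.53, whose SD of 0.0289 was small beside their mean of -0.54. The ratio spread more between replicate numbers than between groups, and the groups overlapped. The exact two-sided sign-flip permutation test gave p = 0.13, the smallest possible.

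The ratio of Ly96 to Tlr4 was 0.363 ± 0.0706 in Mettl3-RNP and 0.450 ± 0.0535 in Pulsed libraries (SD, n = 4). It was lower in Mettl3-RNP in 4 of 4 pairs, by log2 differences of -0.10, -0.45, -0.60 and -0.14 (exact two-sided sign-flip permutation test, p = 0.13). The ratio of Cd180 to Tlr4 was 0.488 and 0.491 in the groups, with a mean log2 difference of -0.02 (SD 0.137, exact p = 0.875). The ratio of Tlr6 to Tlr1 was 9.82 ± 2.47 and 8.98 ± 2.77, higher in 3 of 4 pairs (exact p = 0.5).

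**Figure D4:**
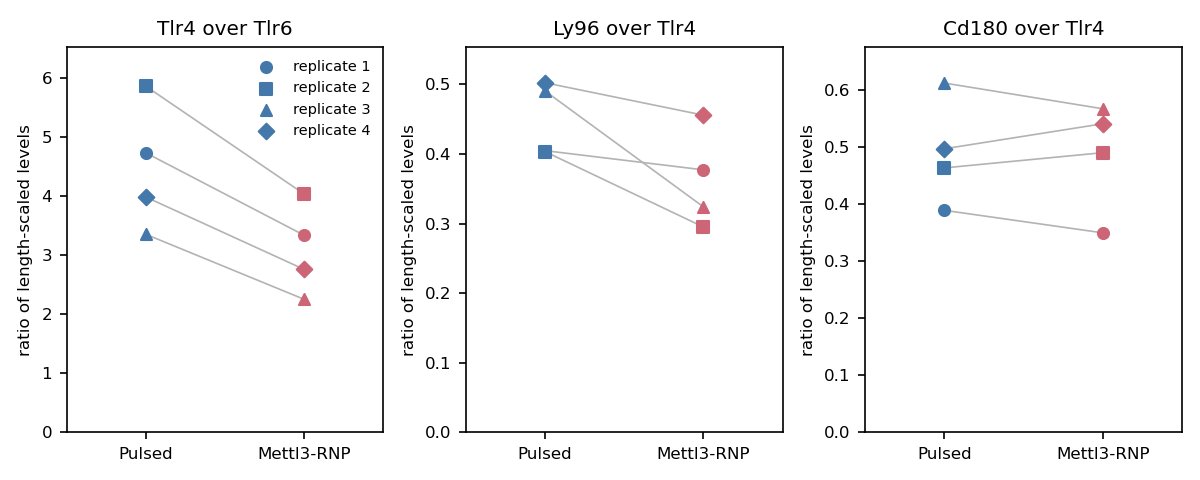
Ratios of length-scaled levels within each library (vertical axes start at 0) for Tlr4 over Tlr6, Ly96 over Tlr4 and Cd180 over Tlr4, in Pulsed (blue) and Mettl3-RNP (red) libraries, with symbols for replicate numbers and lines joining pairs. The Tlr4 to Tlr6 ratio falls by nearly the same factor in each pair, with log2 differences from -0.57 to -0.50.

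Most of the spread in these genes lay between replicate numbers and not between groups. For Tlr4, 98.3% of the variance of log2 CPM over the 8 libraries was between replicate numbers and 0.0854% between groups. For Ly96 the shares were 88.6% and 9.37%, and for Tlr6 63.9% and 32.8%. The medians over all tested genes were 78.3% and 5.68%. Tlr6 therefore had more, and Tlr4 less, of its variance between groups than the median gene.

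For the 3 abundant members replicate 3 stood apart, low in both groups. Tlr4 in replicate 3 was at 0.475 of the mean of the other replicates in Mettl3-RNP and at 0.405 in Pulsed, Ly96 at 0.409 and 0.460, and Tlr6 at 0.696 and 0.576. Cd180 was at 0.593 and 0.560. Cd14, at 1.75 and 1.45, was not low there, and Tlr2 was at 0.949 and 0.908, both on few counts. Genes outside the receptors, named after their values had been seen, were low there too or near the others. Ms4a2, the beta chain of the IgE receptor, was at 0.588 and 0.574 and Mettl3 itself at 0.477 and 0.435, while Kit, the receptor for stem cell factor, was at 0.989 and 1.19.

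Genes around TLR signalling, also named after their values had been seen, went both ways in replicate 3. Irak4, the kinase that Myd88 recruits, was at 0.542 and 0.556 of the mean of the others in Mettl3-RNP and Pulsed, and the adaptor gene Ticam1 at 0.60 and 0.536. Nlrp3, the inflammasome sensor that NF-κB signalling induces, had 869 CPM in Mettl3-RNP 3 and 948 CPM in Pulsed 3, against 51.8 to 122 CPM in the other 6 libraries. Nfkbiz, an atypical IκB induced by TLR and IL-1 receptor signals, was at 7.52 and 6.25 times the mean of the others, and Traf6, the ubiquitin ligase downstream of Myd88, at 3.40 and 2.98 times. The labels give no handling that sets replicate 3 apart, and the cause was not tested. Without replicate 3 the log2 fold changes were -0.09 for Tlr4, 0.44 for Tlr6 (edgeR adjusted p = 0.0987) and -0.32 for Ly96 (0.304).

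**Figure D5:**
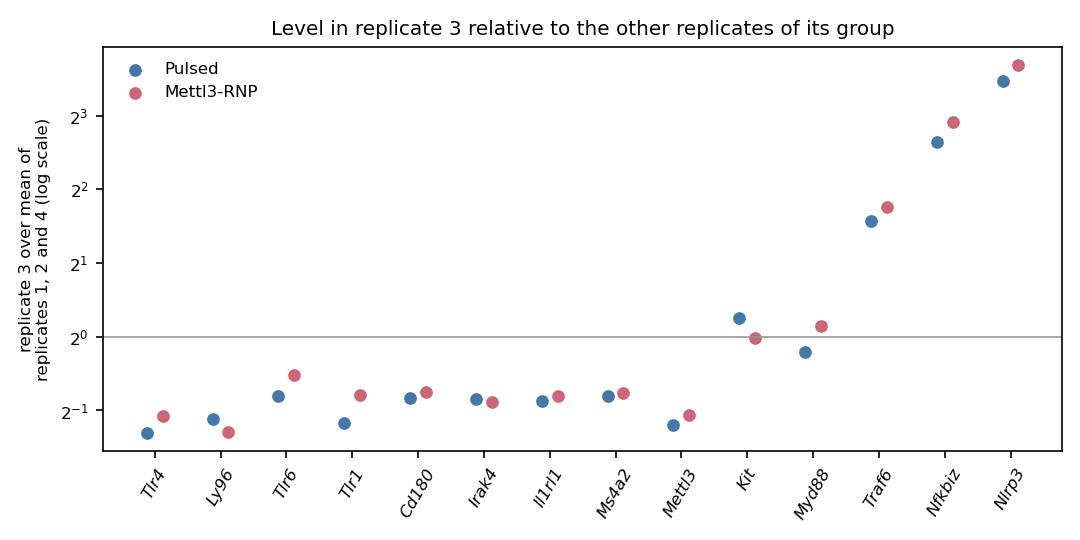
Level in replicate 3 divided by the mean of replicates 1, 2 and 4 of the same group (vertical log axis, 1 marked by a line), blue for Pulsed and red for Mettl3-RNP. Tlr4, Ly96, Tlr6, Tlr1 and Cd180 lie below 1 in both groups, while Traf6, Nfkbiz and Nlrp3 (12.8 and 11.0) lie above.

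Genes around the TLRs were examined by role, in lists of 100 genes of which 87 were tested, from ligand handling through adaptors, kinases and inhibitors to other families of pattern recognition receptors. By edgeR adjusted p, 1 of the 87 rose (Ctsb) and 1 fell (Pilra), or 2.30%, beside 3.74% of all tested genes. An unadjusted p under 0.05 was found for 31 genes (35.6%), 21 higher and 10 lower, beside 22.5%. The median log2 fold change of the 87 genes was 0.09.

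The adaptors bind the TIR domains of the receptors, and none of the 6 passed the test. Myd88, used by every TLR here but Tlr3, was at 92.8 ± 7.35 CPM in Mettl3-RNP and 104 ± 7.42 CPM in Pulsed libraries (SD, n = 4), with a log2 fold change of -0.17 (edgeR adjusted p = 0.308). Tirap, which brings Myd88 to Tlr2 and Tlr4, had a log2 fold change of 0.15 (0.385). Each had pairs in both directions.

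The adaptors of the TRIF arm were closest to the threshold. Ticam1 (TRIF), which signals from Tlr3 and from internalized Tlr4, was at 40.6, 37.1, 24.9 and 46.8 CPM in Mettl3-RNP 1 to 4 and 35.9, 30.4, 17.7 and 32.9 CPM in Pulsed 1 to 4, with a log2 fold change of 0.36 (SE 0.0849, edgeR adjusted p = 0.0593). Ticam2 (TRAM), which bridges Tlr4 and TRIF, was at 2.15, 4.56, 1.97 and 4.33 CPM in Mettl3-RNP 1 to 4 and 1.69, 1.83, 1.17 and 1.92 CPM in Pulsed 1 to 4, with a log2 fold change of 0.91 (SE 0.224, adjusted p = 0.0666). Both had more counts in Mettl3-RNP in 4 of 4 pairs, and the lowest Ticam2 value of Mettl3-RNP was above the highest of Pulsed. Each passed in 4 of 12 alternatives, among them the DESeq2 Wald test (adjusted p = 0.0108 and 0.0243), and did not pass with limma-voom (0.0591 and 0.0522), without the replicate block (0.999) or with any 1 replicate left out (0.105 to 0.274 for Ticam1 and 0.0645 to 0.256 for Ticam2). For both genes the 4 include batch removal with limma-trend, whose p-values are too small. Ticam2 overlaps exons of Tmed7 on the same strand, a gene whose own log2 fold change was 0.01 (adjusted p = 0.971), and reads in the shared exons are uncertain.

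Pik3ap1 (BCAP), an adaptor that links TLRs to PI3-kinase, had a log2 fold change of 0.30 (edgeR adjusted p = 0.562) and was highest in replicate 3 of both groups, at 6.62 and 6.86 CPM. Sarm1, a TIR protein with NAD-cleaving activity, was at 0.219 to 0.855 CPM with a log2 fold change of 0.47 (adjusted p = 0.673). The median over the 6 adaptors was 0.33.

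Of the 5 tested genes on the list for ligand handling and co-receptors, 1 fell, Pilra, which is not itself a TLR co-receptor. Pilra, an inhibitory receptor of myeloid cells, was at 36.2, 13.6, 13.5 and 14 CPM in Mettl3-RNP 1 to 4 and 63.2, 37.5, 42.0 and 23.5 CPM in Pulsed 1 to 4. It was lower in 4 of 4 pairs, with a log2 fold change of -1.16 (SE 0.159, edgeR adjusted p = 0.0165), although Mettl3-RNP 1 lay within the range of the Pulsed libraries. Without replicate 2 the adjusted p was 0.0760 and without the replicate block 0.999. Exons of Zcwpw1 overlap those of Pilra on the opposite strand. Cd180 had a log2 fold change of -0.05 (adjusted p = 0.847), and the median of the list was -0.05.

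The folding, transport and endosomal processing list had 16 tested genes, of which 1 rose and none fell, with a median of 0.0043. Ctsb, a lysosomal cysteine protease of the group that processes endosomal TLRs, was at 222, 238, 249 and 238 CPM in Mettl3-RNP 1 to 4 and 197, 186, 187 and 171 CPM in Pulsed 1 to 4, so the groups did not overlap. Its log2 fold change was 0.36 (SE 0.0750, edgeR adjusted p = 0.0465), and the call was lost with each of the replicates 1 to 4 left out in turn (0.0889 to 0.261), with every gene that had a count (0.0661) and without the replicate block (0.999). Exons of Fdft1 overlap those of Ctsb on the opposite strand. The chaperones of surface TLRs did not pass, with log2 fold changes of -0.14 for Hsp90b1 (adjusted p = 0.443) and -0.15 for Cnpy3 (0.294). Unc93b1, which escorts the endosomal TLRs, had 0.60 (0.0812), and Slc15a4, a transporter of endolysosomes that endosomal TLR signalling needs, had 0.39 (0.0559), both higher in 4 of 4 pairs and not past the threshold.

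Further downstream no gene passed the test by edgeR. An unadjusted p under 0.05 was found for 7 of the 22 kinases and ubiquitin ligases (list median of the log2 fold changes 0.05), for 2 of the 10 transcription factors (0.12), for 9 of the 16 inhibitors (0.17) and for 5 of the 12 tested genes of other pattern recognition receptors (-0.07), beside 22.5% of all tested genes. Among the inhibitors, Irak3, a pseudokinase that blocks Myd88 signalling, had 0.27 (adjusted p = 0.0855) and Nfkbiz 0.57 (0.0687), while Tnfaip3, the deubiquitinase A20, had -0.46 (0.167) and Nfkbib, an IκB protein, -0.23 (0.122). Of the 9 inhibitors with an unadjusted p under 0.05, 7 were on the higher side and 2 on the lower. The 7 included Nfkbiz and Il1rl1 (0.24, edgeR adjusted p = 0.117), which are not inhibitors alone, so this count gives no direction of inhibition. Among the other sensors, Nlrp3 had -0.29 (0.0710).

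The genes whose log2 CPM followed those of the abundant members most closely over the 8 libraries were sought among 10737 protein-coding genes. For Tlr4 these were Psd4, Zfp12 and Insig2, with Pearson r of 0.993, 0.992 and 0.991. For Tlr6 they were Alpk2, Dok4 and Tbc1d9b, at 0.989, 0.986 and 0.981, and for Ly96 Nme7, Polr2a and Rlig1, at 0.997, 0.991 and 0.991. Tlr4 and Ly96 correlated at 0.897, which ranked 919 among the genes compared with Tlr4, and Tlr4 and Cd180 at 0.909. Tlr6 followed Tlr4 less closely, at 0.666. The low or high values of replicate 3 enter each r, which is a description of these 8 libraries.

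The TLR genes also share a gene structure that the choice of members did not use. Their coding sequence lies largely in a single long exon, and the canonical transcripts of Tlr4, Tlr6, Tlr1 and Tlr2 had 0.486, 0.230, 0.985 and 0.663 exon junctions per kb, and those of Tlr7 and Tlr9 0.400 and 0.288. Ly96, at 5.28, and Cd14, at 0.609, are not of the family. The median of 12056 tested protein-coding genes was 2.62 and the lower quartile 1.33, so that each of these 6 TLR transcripts lay below the lower quartile.

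The m6A complex methylates adenosines in a short motif, of which GGACT is the best known form. On the transcript strand Tlr6 held 9 copies (2.07 per kb), Tlr4 6 (1.46), Tlr1 5 (1.64), Tlr2 7 (2.32), Tlr9 6 (1.73), Tlr7 4 (0.801) and Cd14 4 (2.44). The median over tested protein-coding genes was 1.04 per kb, with quartiles of 0.656 and 1.48. The short Ly96 transcript held no copy. No methylation was measured in these libraries, and a copy of the letters is not a methylated site.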

How the data were processed

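Poly-A RNA of 8 libraries was sequenced. The authors aligned paired-end reads with HISAT2 2.2.1 to GRCm39 after FastQC 0.11.9 and counted them with featureCounts 2.0.1. They deposited 1 table of raw, whole-number counts per Ensembl gene for each library. The study's methods name a batch correction that is not visible in these counts, and strand and multimapping settings are not stated. Gene names and positions came from GENCODE mouse release M39 (GRCm39), which named 56017 of 56748 IDs. Groups and replicate numbers came from the sample titles.

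Genes were kept by filterByExpr (minimum count 10), library sizes were scaled by TMM, and Mettl3-RNP was tested against Pulsed by edgeR 4.0.16 (glmQLFit and glmQLFTest, R 4.3.3) in a model with a term for replicate number (the block). p-values were adjusted by Benjamini-Hochberg over all 14942 tested genes and called at 0.05 or less. SEs were derived from the F statistic, and a prior count of 2 went into log2 CPM. The procedure was tested on simulated data. The block rests on the 4 mice named by the series text, and taking each number as 1 mouse is inferred. After subtraction of group means, libraries with the same number correlated at 0.825, 0.489, 0.879 and 0.765 over 11985 genes of at least 1 CPM, with at most 0.183 between different numbers. Over all tested genes pair 2 had 0.0738, below the highest between different numbers, 0.249. Between libraries of a group chi-square over its degrees of freedom was 59.8 or more, so none was counted as a duplicate. p-values measure the spread between these pairs, and the counts carry no molecular identifiers, so that floors cover counting error only.

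The text names Mettl3, the members, the other TLRs, the adaptors, pathway genes past the threshold and the 3 genes most like each member of at least 1 CPM. Other genes were named after their values were seen. The members and lists were chosen with earlier results of these data known. Alternatives were DESeq2 1.42.0 size factors and Wald test, library size alone, other filters, limma 3.58.1 (voom, and batch removal with limma-trend), no block, leaving out each replicate, a fold of 1.5 and the longest transcript. Windows before the canonical start and exonic sequence were read from GRCm39.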

Additional observations from a re-analysis of the deposited data

Results flagged for a closer look

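In 43 groups of 4 values, from 23 genes, 9 had a library whose gap to its nearest neighbour was past the critical value of Dixon's test. Chance flags about 1 in 20 groups, or 2.15 here. This rate does not apply to 4 of the 9, which rest on 1 or 2 counts against libraries at 0.

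Among genes with abundant counts, Mettl3 was low in Pulsed 3 at 11.2 CPM, against 24.5 to 26.5 CPM in the other Pulsed libraries, Pik3ap1 was high in Pulsed 3 at 6.86 CPM, and Pilra was high in Mettl3-RNP 1 at 36.2 CPM. Among the scarce receptors, Tlr7 was high in Pulsed 2 at 0.183 CPM (7 counts) and Cd14 was low in Pulsed 4 at 0.137 CPM (5 counts). The remaining values rest on 1 or 2 counts against libraries at 0: Tlr9 at 0.0334 CPM and Tlr8 at 0.0334 CPM in Mettl3-RNP 3, Tlr5 at 0.0249 CPM in Pulsed 3, and Tlr8 at 0.0563 CPM in Pulsed 1.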

How the results depend on the processing

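Tlr1, Tlr4, Tlr6 and Ly96 kept their direction in 12 of 12 alternatives, Tlr6 passing in 6 and Ly96 in 1 (batch removal, adjusted p = 0.0118), while Cd14 ranged from -0.68 to 0.053 without 1 replicate, turning positive without replicate 4. The replicate block decided all calls: without it edgeR called 0 genes of the series (579 at an unadjusted p under 0.05), 0 pathway genes and not Mettl3 (log2 fold change -1.31, adjusted p = 0.744). The 559 genes called became 993 with every gene that had a count, 959 with at least 10 counts in every library, 1449 with the DESeq2 Wald test, 308 with a fold of 1.5 and 4564 with batch removal, where 2269 were higher and 2295 lower against 351 and 208, and 26 to 383 without 1 replicate, the lowest without replicate 2. Called members went from 0 to 1 (Tlr6) with DESeq2 size factors, library size alone, both other filters and the Wald test, to 2 with batch removal, and stayed at 0 without any 1 replicate. Called pathway genes went from 2 to 7 with every gene, 9 with the stricter filter, 19 with the Wald test, 37 with batch removal and 1 (Pilra) with a fold of 1.5, and to 0 to 2 without 1 replicate, with 0 without replicate 2 and 1 without replicate 4. The filters and left-out replicates change the genes or libraries tested, while the other alternatives test the same 14942 genes in the same 8 libraries. Batch removal followed by limma-trend leaves out the degrees of freedom of the replicate terms, so its p-values are too small. The cause of the other differences was not tested. DESeq2 gave no adjusted p for Tlr1 and Cd14. With the longest transcript the length-scaled level of Tlr4 was 13.0 in Mettl3-RNP and 13.6 in Pulsed libraries, and that of Ly96 4.59 and 5.74. Tlr2, Tlr7, Tlr9 and the 6 other TLRs had too few counts for the filter of the edgeR fit at this depth. With every gene that had a count the lowest adjusted p among them was that of Tlr7, 0.374.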
